A study of Homo sapiens with 62 samples.

Results

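NEAT1 is a long noncoding RNA that builds paraspeckles, and its loss was examined here in nephron organoids at day 13 of differentiation. The comparison consisted of 6 of the 62 RNA-seq libraries of the series, chosen by their labels: 2 libraries of NEAT1-/- clone 1, 2 libraries of NEAT1-/- clone 2 and 2 libraries of CTR organoids. All 6 came from WIBR3, an established human embryonic stem cell (hESC) line, carried the culture label PN96 and were collected at day 13, so the groups differed in the labelled genotype alone. The study also knocked out NEAT1 in hESC and in cortical, hepatic and lung organoids, to look for functions of NEAT1 that depend on the tissue, and those 24 libraries served here to test whether a change was larger in nephron organoids. Each knockout clone is a single isolate of the line. How the deletion was made, which part of the gene it removed and how the CTR line was derived are not given in the labels.

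Paraspeckles are nuclear bodies in which NEAT1 RNA serves as the scaffold for RNA-binding proteins such as NONO and SFPQ, and they can hold proteins and RNAs back in the nucleus. In the embryonic kidney, mesenchymal progenitors marked by SIX2 and PAX2 condense, form a renal vesicle and pattern into podocytes, proximal tubule and distal tubule, while interstitial stroma supplies matrix and endothelium supplies vessels. Nephron organoids follow part of this course in culture and can also hold cells outside the nephron, such as neural crest derivatives and muscle.

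The values were TPM, the length-normalized share of each gene's transcripts in a library, which keeps no sequencing depth, so the depth behind each value is unknown. Between 19052 and 20048 genes reached 1 TPM per library. PAX8, WT1, SIX2 and GATA3, early kidney markers, lay between 4.78 and 72.5 TPM in the 6 libraries and between 0.0541 and 1.28 TPM in CTR hESC, and the pluripotency markers POU5F1 and NANOG were at 0.425 TPM or below, against 66.9 to 151 TPM in CTR hESC. Several markers of mature segments were near 0: UMOD was listed at 0 in every library, SLC34A1, SLC12A1 and AQP2 stayed at 0.324 TPM or below, and NPHS1 lay between 0.83 and 1.74 TPM. Of the lists, 11 of 13 proximal tubule genes and 8 of 12 podocyte genes passed the filter of 1 TPM in 2 libraries, among them AQP1 and PODXL, which other cell types also express.

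The CTR libraries stood further apart from each other than the libraries of either clone did. Of the genes reaching 5 TPM in a group, 3.3% differed at least 2-fold between the CTR libraries, against 1.57% between the clone 1 libraries and 1.51% between the clone 2 libraries. SIX2 had 4.78 and 30.3 TPM in CTR replicates 1 and 2, and MYF6, a muscle regulator, had 0.214 and 27.1 TPM. For most genes whose values are given, the number of refits in which the call persisted, out of 6 that each leave out 1 library, stands beside the call. Counts over gene lists are for the mean of both clones unless a clone is named. Of the 104 named genes that passed the test, 31 passed it in every such refit and 5 in none. Whether both libraries of a group were grown as separate cultures is not stated, and each p-value measures only the spread between libraries, which may be technical.

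NEAT1 itself (ENSG00000245532.10, chr11:65422774-65445540, plus strand, GRCh38) was nearly absent from the knockouts. It had 0.0207 and 0.0276 TPM in clone 1 and 0.543 and 0.590 TPM in clone 2, against 30.7 and 44.2 TPM in CTR. All 4 knockout libraries lay below both CTR libraries, and the clone 2 libraries lay above the clone 1 libraries. On the log2(TPM + 1) scale, on which all changes here were fitted, the mean of both clones fell by 4.90 ± 0.22 (SE; limma with Benjamini-Hochberg adjustment over 20670 genes, adjusted p = 0.0025, n = 2 libraries per group, two-sided). Because NEAT1 reached 1 TPM only in CTR, it could be refitted only with both CTR libraries present, and it passed in each of those 4 refits. In the authors' deposited table the log2 change of NEAT1 was -10.6 in clone 1 and -6.00 in clone 2.

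Of the 9 tested neighbours of NEAT1 on chromosome 11, 0 rose and 1, MALAT1, fell in the mean of both clones; MALAT1 is another abundant nuclear noncoding RNA. MALAT1 had 139 and 97.8 TPM in clone 1 and 150 and 164 TPM in clone 2, against 220 and 198 TPM in CTR. Its adjusted p of 0.0499 lay at the threshold and exceeded it in 5 of the 6 refits, up to 0.162; the call persisted only without clone 1 replicate 1, and it was also lost when libraries were rescaled by size factors. None of the 11 genes for paraspeckle proteins was called: NONO had 579 and 582 TPM in clone 1 and 544 and 565 TPM in clone 2, against 531 and 559 TPM in CTR.

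Across all genes, more fell than rose. For the mean of both clones, 1494 of 20670 tested genes were called at an adjusted p under 0.05, which is 7.23%; 451 rose (2.18%) and 1043 fell (5.05%). A change of at least 2-fold was seen in 114 of the called rises and 526 of the called falls. The median log2 change over all tested genes was -0.04. After rescaling by size factors, 632 rose and 945 fell. Leaving out 1 library lowered the number of called genes to between 235, without clone 2 replicate 2, and 732, without CTR replicate 1. All 4 knockout libraries lay above both CTR libraries for 14.1% of tested genes and below both for 22.1%.

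Each clone was also compared with CTR by itself. Clone 1 had 1611 called genes (7.79%), 593 higher (2.87%) and 1018 lower (4.93%). Clone 2 had 175 (0.847%), 22 higher (0.106%) and 153 lower (0.74%). Both counts depend on single libraries: for clone 1 they ranged from 202, without clone 1 replicate 2, to 1038, and for clone 2 from 0, without either clone 2 library, to 173. At those counts of 0, limma gave 2984 genes at an unadjusted p under 0.05 without clone 2 replicate 1 and 2333 without clone 2 replicate 2. The clone 2 count was 13 and 8 without clone 1 replicates 1 and 2. Without CTR replicate 2, 77 of 143 called genes in clone 2 were higher. In the authors' deposited table, from a count model, 2460 genes passed an adjusted p under 0.05 in clone 1 (1140 higher, 1320 lower) and 712 in clone 2 (262 higher, 450 lower). Both comparisons use the same CTR libraries, so the values of each clone are given side by side below and no overlap between them was counted. Every list count below is to be read against the share of all tested genes. For the mean of both clones that share was 2.18% higher and 5.05% lower. For clone 1 alone it was 2.87% and 4.93%, and for clone 2 alone 0.106% and 0.74%, so few calls in clone 2 are not particular to a list.

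Genes of fibroblast-like stroma and its matrix were lower in the knockouts. Of 11 tested genes on the renal stroma list, 0 rose and 5 fell in the mean of both clones, with a median log2 change of -0.77. Of 12 extracellular matrix genes, 0 rose and 7 fell, with a median of -0.93. Over all tested genes 2.18% rose and 5.05% fell. Without clone 2 replicate 2 the falls numbered 2 on each list, and without clone 2 replicate 1 they numbered 2 and 4; clone 1 alone had 6 falls and 1 rise on the stroma list and 7 falls on the matrix list, and clone 2 alone 2 and 1 falls. COL3A1, a fibrillar collagen of mesenchyme (chr2:188974320-189012746, plus strand), had 576 and 509 TPM in clone 1 and 1047 and 868 TPM in clone 2, against 2328 and 3222 TPM in CTR. Both clones lay below both CTR libraries, with clone 1 lowest. COL3A1 fell by 1.93 ± 0.15 on the log2 scale, a 3.81-fold lower level (limma, adjusted p = 0.0038), and passed in 6 of 6 refits. Clone 1 fell by 2.34 (adjusted p = 0.0027, 6 of 6 refits) and clone 2 by 1.52 (adjusted p = 0.0244), a call that was lost without any 1 of the 4 knockout libraries (up to 0.223).

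COL1A1, the main fibrillar collagen of connective tissue, had 248 and 242 TPM in clone 1 and 296 and 301 TPM in clone 2, against 670 and 956 TPM in CTR. It was 2.95-fold lower (log2 -1.56 ± 0.13, limma adjusted p = 0.0046, 6 of 6 refits). The collagen VI chains, which form microfibrils around cells, fell together: COL6A1 had 226 and 218 TPM in clone 1 and 302 and 319 TPM in clone 2, against 514 and 742 TPM in CTR, and fell by 1.23 ± 0.14 (limma adjusted p = 0.0082, 6 of 6 refits). COL6A2 fell by 1.43 ± 0.17, COL6A3 by 1.31 ± 0.24 and COL5A1, a regulator of fibril diameter, by 1.66 ± 0.23; COL6A2 and COL5A1 lost the call only without clone 2 replicate 2 (adjusted p = 0.0512 and 0.0608), and COL6A3 lost it in 4 of 6 refits (up to 0.0978), persisting without CTR replicate 1 and without clone 1 replicate 2.

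The small proteoglycans that decorate collagen fibrils were lower as well. FMOD (fibromodulin) had 10.5 and 9.31 TPM in clone 1 and 37.3 and 35.3 TPM in clone 2, against 126 and 221 TPM in CTR. It was 8.36-fold lower (log2 -3.06 ± 0.21, limma adjusted p = 0.0033, 6 of 6 refits). DCN (decorin) had 7.73 and 7.88 TPM in clone 1 and 22.3 and 13.9 TPM in clone 2, against 40.7 and 121 TPM in CTR, and LUM (lumican) had 60 and 68.5 TPM and 99.3 and 59.8 TPM in the clones, against 182 and 418 TPM. The groups did not overlap for either gene, but the CTR libraries were 2-fold or more apart. DCN lost its call without any 1 of the 4 knockout libraries (adjusted p up to 0.079), and LUM lost it without any of these or without CTR replicate 2 (up to 0.0806).

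FOXD1, MEIS1, MEIS2, PDGFRA, PDGFRB and TBX18, transcription factors and receptors of stroma, did not pass the test for the mean of both clones. PDGFRA had 106 and 87.4 TPM in clone 1 and 101 and 107 TPM in clone 2, against 155 and 112 TPM in CTR. PDGFRB had 97.6 and 105 TPM in clone 1 and 71.2 and 79.1 TPM in clone 2, against 73.6 and 69.9 TPM in CTR. In clone 1 alone PDGFRB rose by 0.49 and MEIS2 fell by 0.49 (limma adjusted p = 0.0293 and 0.0314), calls kept in 0 and 1 of 6 refits. The summed level of the 11 stroma genes lay between 1193 and 1851 TPM in the knockouts, against 3682 and 5172 TPM in CTR, and COL1A1 and COL3A1 supply most of that sum. In bulk RNA, fewer cells of a type and less RNA per cell cannot be told apart.

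**Figure D1:**
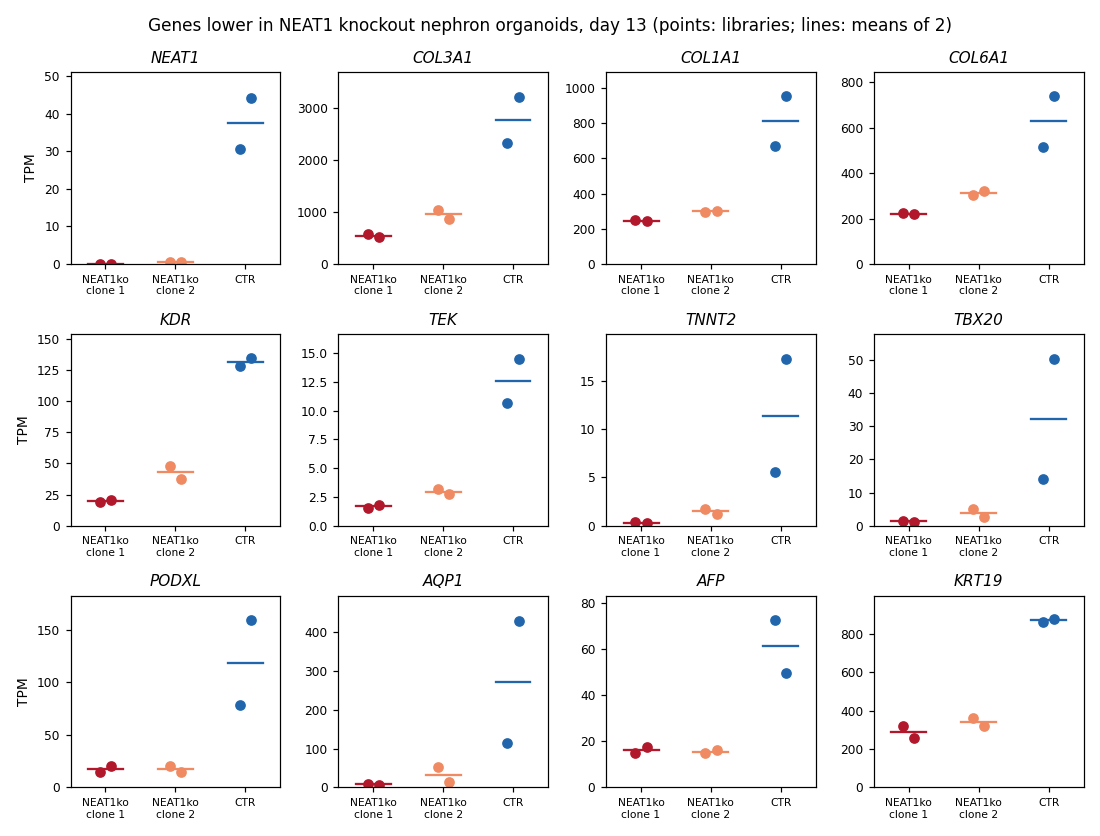
TPM in each library (points; the line is the mean of the 2 libraries) for NEAT1 and 11 genes that were called lower in the knockouts, with clone 1, clone 2 and CTR from left to right and a linear axis from 0 in every panel. Every knockout library lies below both CTR libraries; the CTR libraries lie close together for KDR and KRT19 and far apart for AQP1, TNNT2 and TBX20.

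Endothelial genes were lower. Of 10 tested genes on the list, 0 rose and 6 fell (PECAM1, CDH5, KDR, TEK, TIE1 and EMCN), with a median log2 change of -1.24. KDR, the main receptor for VEGF on vessels (chr4:55078259-55125595, minus strand), had 19.1 and 20.4 TPM in clone 1 and 47.9 and 37.7 TPM in clone 2, against 129 and 135 TPM in CTR. The CTR libraries were close together and every knockout library lay far below them. KDR was 4.41-fold lower (log2 -2.14 ± 0.11, limma adjusted p = 0.0025, 6 of 6 refits); clone 1 fell by 2.68 (6 of 6 refits) and clone 2 by 1.61, a call lost without clone 1 replicate 2 or either clone 2 library (up to 0.182).

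TEK, the angiopoietin receptor, had 1.57 and 1.83 TPM in clone 1 and 3.20 and 2.71 TPM in clone 2, against 10.6 and 14.5 TPM in CTR, a log2 change of -2.04 ± 0.19 (limma adjusted p = 0.0061, 6 of 6 refits). CDH5, the cadherin of endothelial junctions, fell by 1.38 ± 0.22 and lost its call without CTR replicate 1 or without clone 2 replicate 2 (adjusted p up to 0.0766). TIE1, PECAM1 and EMCN kept their calls in 3, 2 and 2 of 6 refits (adjusted p up to 0.0664, 0.0794 and 0.0988). VWF, a marker of mature endothelium, did not pass the filter on low values, and ERG, SOX17, SOX7 and ETV2, the transcription factors on the list, were not called. The number of endothelial genes called lower was between 2 and 6 over the refits, at 2 without CTR replicate 1 and without clone 2 replicate 2. The summed level of the list lay between 57.3 and 107 TPM in the knockouts, against 248 and 226 TPM in CTR.

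Genes of heart and the mesoderm gene HAND1 were also lower. Of 6 tested early mesoderm genes, HAND1 alone was called, and the median log2 change was -0.04. FOXF1, on the same list, was not called. HAND1, a transcription factor of lateral and extraembryonic mesoderm, had 125 and 131 TPM in clone 1 and 256 and 194 TPM in clone 2, against 572 and 781 TPM in CTR. It was 3.94-fold lower (limma adjusted p = 0.0038, 6 of 6 refits). MYL7, the atrial myosin light chain, had 0.645 and 0.215 TPM in clone 1 and 1.03 and 1.53 TPM in clone 2, against 8.60 and 7.07 TPM in CTR, and passed in 6 of 6 refits (adjusted p = 0.0071). Of 4 tested cardiac genes, 3 fell (TNNT2, TBX5 and MYL7) and 0 rose, with 1 fall without clone 1 replicate 2 or without either clone 2 library; the other 2 on the list, MYH6 and NKX2-5, which define working myocardium, did not pass the filter on low values.

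TNNT2, cardiac troponin T, and TBX20, a cardiac transcription factor, fell by 2.60 and 3.09 on the log2 scale (limma adjusted p = 0.0175 and 0.0183). Their CTR libraries were far apart, with TBX20 at 1.42 and 1.20 TPM in clone 1 and 5.11 and 2.45 TPM in clone 2, against 14 and 50.3 TPM in CTR. TNNT2 and TBX20 lost the call without clone 1 replicate 2 or clone 2 replicate 2, TNNT2 also without clone 2 replicate 1 (adjusted p up to 0.0726). SLN, sarcolipin of atrial muscle, was at 0 and 0 TPM in clone 1 and 0 and 0.224 TPM in clone 2, against 5.34 and 27.7 TPM in CTR; it passed the filter only through CTR, where it is high, so its level is a description; it is not on the cardiac list. TBX5, which patterns heart and forelimb, fell by 1.36 and lost its call in 5 of 6 refits, up to adjusted p = 0.141; it persisted only without CTR replicate 1. The summed level of the cardiac list lay between 5.87 and 11.6 TPM in the knockouts, against 27.6 and 44.1 TPM in CTR; its part in the changes of stroma and endothelium was not tested.

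Among genes of nephron segments, those called lower included a podocyte surface protein and a water channel. PODXL (podocalyxin; chr7:131500262-131558217, minus strand), the anti-adhesive sialoprotein of podocyte foot processes that vessels and stem cells also carry, had 14.8 and 19.8 TPM in clone 1 and 20.5 and 14.8 TPM in clone 2, against 78.5 and 159 TPM in CTR. The clones overlapped each other and lay below both CTR libraries. PODXL was 6.17-fold lower (log2 -2.63 ± 0.29, limma adjusted p = 0.0077, 6 of 6 refits). AQP1, the water channel of proximal tubule, red cells and endothelium (chr7:30911694-30925516, plus strand), had 8.87 and 5.39 TPM in clone 1 and 52.1 and 13.2 TPM in clone 2, against 114 and 429 TPM in CTR. It had the largest fall of the named genes after NEAT1 (log2 -3.92 ± 0.66, limma adjusted p = 0.022), and lost its call in 4 of 6 refits (up to 0.0723), namely without CTR replicate 2, either clone 1 library or clone 2 replicate 2.

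The rest of the podocyte and proximal tubule lists showed few calls. Of 8 tested podocyte genes, 2 fell (PODXL and TCF21) and 0 rose, and of 11 proximal tubule genes, 2 fell (AQP1 and SLC5A12) and 0 rose; the medians were -0.30 and -0.20. SLC5A12, a lactate transporter of the tubule, had 7.52 and 8 TPM in clone 1 and 4.82 and 4.81 TPM in clone 2, against 14.8 and 17.9 TPM in CTR, and fell by 1.28 ± 0.14 (limma adjusted p = 0.0077, 6 of 6 refits). TCF21, a transcription factor of podocytes and of stroma, fell by 1.47 ± 0.24 and lost its call in 4 of 6 refits (adjusted p up to 0.0894), persisting without CTR replicate 1 and without clone 1 replicate 1. Exons of TCF21 share 1383 bases with TARID on the opposite strand, and the counting is not stated to use strand, so reads of both cannot be told apart. The same limit holds for other genes named here that share exon bases with a gene on the opposite strand. Among them are PRPH (2445 bases), DUSP6 (1875), HMGCS1 (703), IDI1 (643), GDNF (526), CCND1 (497), CRABP1 (469), HOXA9 (422), LRRC61 (390) and EMX2 (255).

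Other marked falls were outside the kidney lists. KRT19, a keratin of simple epithelia, had 317 and 258 TPM in clone 1 and 359 and 318 TPM in clone 2, against 861 and 878 TPM in CTR (log2 -1.48 ± 0.10, limma adjusted p = 0.0033, 6 of 6 refits). S100A6, a calcium-binding protein, had 0 and 0.323 TPM in clone 1 and 0.931 and 1.05 TPM in clone 2. CTR had 9.09 and 8.61 TPM. S100A6 passed the filter only through CTR, where it is high, so its level is a description. AFP, the fetal liver and yolk sac protein, had 14.8 and 17.3 TPM in clone 1 and 14.7 and 16.3 TPM in clone 2, against 72.9 and 49.8 TPM in CTR (adjusted p = 0.0051, 6 of 6 refits). AFP was the only 1 of 6 tested endoderm and liver genes that fell, and ALB, the defining marker of hepatocytes, stayed at or below 1.30 TPM in all 6 libraries.

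HTR1E, a serotonin receptor, fell by 2.69 ± 0.26, and BMP5, a ligand of the BMP family, by 1.40 ± 0.11 (limma adjusted p = 0.0061 and 0.0038); both passed in 6 of 6 refits. SFRP1, a secreted inhibitor of WNT signalling, had 133 and 137 TPM in clone 1 and 240 and 257 TPM in clone 2, against 371 and 299 TPM in CTR (adjusted p = 0.0082, 6 of 6 refits). NPNT (nephronectin), a matrix ligand of integrin alpha 8, fell by 3.08 ± 0.47, and ITGA8, the gene of that integrin chain, by 1.24 ± 0.26. Both were less stable: NPNT lost its call without CTR replicate 2, clone 1 replicate 2 or clone 2 replicate 2 (adjusted p up to 0.0608), and ITGA8 lost it in 5 of 6 refits (up to 0.128), persisting only without CTR replicate 1. PRPH (peripherin), an intermediate filament of peripheral neurons, fell by 2.71 ± 0.32 and MAGEB17 by 2.75 ± 0.37, each losing its call only without clone 2 replicate 2 (adjusted p = 0.0512 and 0.0568).

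Genes of neural crest and its glia were higher in the knockouts. Of 5 tested genes on the list, 4 rose, among them SOX10, FOXD3 and ERBB3, and 0 fell, with a median log2 change of 1.29. Over all tested genes 2.18% rose and 5.05% fell. The rises numbered 2 without clone 2 replicate 2 and 1 in a fit that pools the knockout libraries; clone 1 alone had 4 and clone 2 alone 1. SOX10, the transcription factor that defines neural crest and Schwann cell precursors (chr22:37970686-37987422, minus strand), had 21.7 and 29.9 TPM in clone 1 and 9.97 and 6.29 TPM in clone 2, against 0.757 and 1.21 TPM in CTR. Clone 1 was highest, clone 2 intermediate and CTR near 1 TPM, with no overlap. Only 1 CTR library reached 1 TPM, so SOX10 passed the filter only through the knockouts, where it is high. Its level is therefore a description, although it is counted among the rises. The log2 change of SOX10 was 2.96 ± 0.23 in the mean of both clones, 3.75 in clone 1 and 2.18 in clone 2. Its call in clone 2 alone depended on single libraries.

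FOXD3, a factor of early neural crest, had 7.80 and 15.4 TPM in clone 1 and 1.88 and 1.75 TPM in clone 2, against 0 and 0.218 TPM in CTR. It passed the filter only through the knockouts, where it is high, so its level is a description, although it is counted among the rises. FOXD3 and its antisense neighbour FOXD3-AS1 share 179 exon bases, and without strand their reads cannot be told apart. Each of these 2 genes lost its call only without clone 2 replicate 2. ERBB3, the neuregulin receptor of glia, had 12.1 and 12.5 TPM in clone 1 and 4.43 and 2.78 TPM in clone 2, against 3.28 and 2.19 TPM in CTR; its groups overlapped between clone 2 and CTR, and its call persisted in 0 of 6 refits (adjusted p 0.0557 to 0.150). The summed level of the list lay between 22.3 and 90.4 TPM in the knockouts, against 14.6 and 11.5 TPM in CTR, and S100B, another glial marker, did not pass the filter; the part of such cells in other changes was not tested.

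SOX2, RFX4 and WNT1, genes of neural progenitors and of the dorsal neural tube, were named by the same rule. SOX2 had 80.4 and 146 TPM in clone 1 and 61.9 and 46.1 TPM in clone 2, against 9.53 and 26.4 TPM in CTR (log2 2.18 ± 0.40, limma adjusted p = 0.0286). It lost its call in 4 of 6 refits (up to 0.0856), namely without CTR replicate 1, clone 1 replicate 2 or either clone 2 library. RFX4 rose by 2.23 ± 0.35 and WNT1 by 2.37 ± 0.43; RFX4 lost its call in 3 of 6 refits and WNT1 in 4 of 6, in each case without CTR replicate 1 and without either clone 2 library, and for WNT1 also without CTR replicate 2 (adjusted p up to 0.0695 and 0.0948). Of 7 tested genes on the list of neural progenitors and neurons, SOX2 alone was called, and PAX6, SOX1 and NEUROD1 did not pass the filter on low values.

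Genes of the renal vesicle and of segment patterning were higher. Of 10 tested, 5 rose (POU3F3, CDH6, BMP7, CCND1 and JAG1) and 0 fell, with a median log2 change of 1.33. POU3F3 was tested only because it is high in the knockouts. The rises numbered 2 without clone 2 replicate 2 and 1 in the pooled fit; clone 1 alone had 5 and clone 2 alone 0. JAG1, a Notch ligand, kept its call in 3 of 6 refits (adjusted p up to 0.0799). CDH6, a cadherin of renal vesicle and early proximal tubule (chr5:31193750-31329146, plus strand), had 34.3 and 52.1 TPM in clone 1 and 17.2 and 19.3 TPM in clone 2, against 3.71 and 6.45 TPM in CTR. Both clones lay above CTR, with clone 1 highest. CDH6 was 4.87-fold higher (log2 2.28 ± 0.24, limma adjusted p = 0.0068, 6 of 6 refits). CCND1, cyclin D1, had 47.8 and 53.5 TPM in clone 1 and 24.8 and 29 TPM in clone 2, against 14.7 and 17.4 TPM in CTR, and passed in 6 of 6 refits (adjusted p = 0.0068).

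POU3F3 (BRN1) patterns the distal tubule and loop in mouse. It had 18.4 and 16.7 TPM in clone 1 and 3.64 and 5.38 TPM in clone 2. CTR had 0.178 and 1.92 TPM, and the log2 change was 2.44 ± 0.36. POU3F3 passed the filter only through the knockouts, where it is high. Its level is therefore a description, although it is counted among the rises. Its call was lost without clone 1 replicate 2 or clone 2 replicate 2. BMP7, a survival factor of nephron progenitors, rose by 1.45 ± 0.21 and lost its call without CTR replicate 1 or clone 2 replicate 2 (up to 0.0614). FGF8, PAX8 and WNT4, which act at the vesicle stage, were not called: PAX8 had 66.5 and 55.5 TPM in clone 1 and 39.5 and 39.5 TPM in clone 2, against 9.12 and 35.1 TPM in CTR (adjusted p = 0.11).

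Of 16 tested nephron progenitor genes, 4 rose (PAX2, SALL1, GDNF and LYPD1) and 1 fell (ITGA8), with a median log2 change of 0.68. PAX2, which is needed for the mesenchyme to form epithelium (chr10:100735603-100829941, plus strand), had 62.2 and 66.9 TPM in clone 1 and 24.2 and 29.6 TPM in clone 2, against 9.87 and 14.7 TPM in CTR. It was 3.27-fold higher (log2 1.71 ± 0.17, limma adjusted p = 0.0063, 6 of 6 refits). SALL1, a transcription factor of the same progenitors, had 127 and 143 TPM in clone 1 and 80.9 and 80.9 TPM in clone 2, against 55.3 and 49.8 TPM in CTR (adjusted p = 0.0048, 6 of 6 refits). GDNF, the ligand by which progenitors draw in the ureteric bud, had 20.5 and 24.9 TPM in clone 1 and 11.3 and 10.6 TPM in clone 2, against 1.60 and 5.78 TPM in CTR (adjusted p = 0.0256); it lost its call without any 1 of the 4 knockout libraries (up to 0.0901).

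SIX2, which keeps progenitors self-renewing, had 66.0 and 62.0 TPM in clone 1 and 60.5 and 72.5 TPM in clone 2, against 4.78 and 30.3 TPM in CTR. All 4 knockout libraries lay above both CTR libraries, yet the CTR libraries differed so much that SIX2 was not called (log2 2.30 ± 0.59, limma adjusted p = 0.0649). MEOX1 overlapped between groups. WT1 had 16.9 and 7.75 TPM in clone 1 and 18.2 and 17.3 TPM in clone 2, against 11.2 and 16.5 TPM in CTR (adjusted p = 0.912). The number of progenitor genes called higher was 8 without CTR replicate 2, against 2 without clone 2 replicate 2.

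The list of loop and distal tubule genes held 3 calls among 9 tested, EMX2, TFAP2B and MAL, all higher. EMX2, a homeobox factor of intermediate mesoderm and its epithelia, had 31.6 and 42.9 TPM in clone 1 and 9.89 and 15.8 TPM in clone 2, against 3.49 and 3.16 TPM in CTR (log2 2.39 ± 0.21, limma adjusted p = 0.0051, 6 of 6 refits). TFAP2B, which neural crest also uses, had 4.13 and 8.05 TPM in clone 1 and 1.32 and 0.661 TPM in clone 2, against 0 and 0.181 TPM in CTR. It passed the filter only through the knockouts, where it is high, so its level is a description. Its call persisted only without clone 1 replicate 1. MAL, a proteolipid of distal tubule and of myelin, kept its call in 0 of 6 refits (0.0552 to 0.0852). UMOD, SLC12A1, SLC12A3 and KCNJ1, the transport and secretory genes of those segments, did not pass the filter. GFRA1, the receptor of GDNF on the ureteric bud, rose by 1.46 ± 0.20 (adjusted p = 0.0135), with its call lost only without clone 2 replicate 2 (0.0608).

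**Figure D2:**
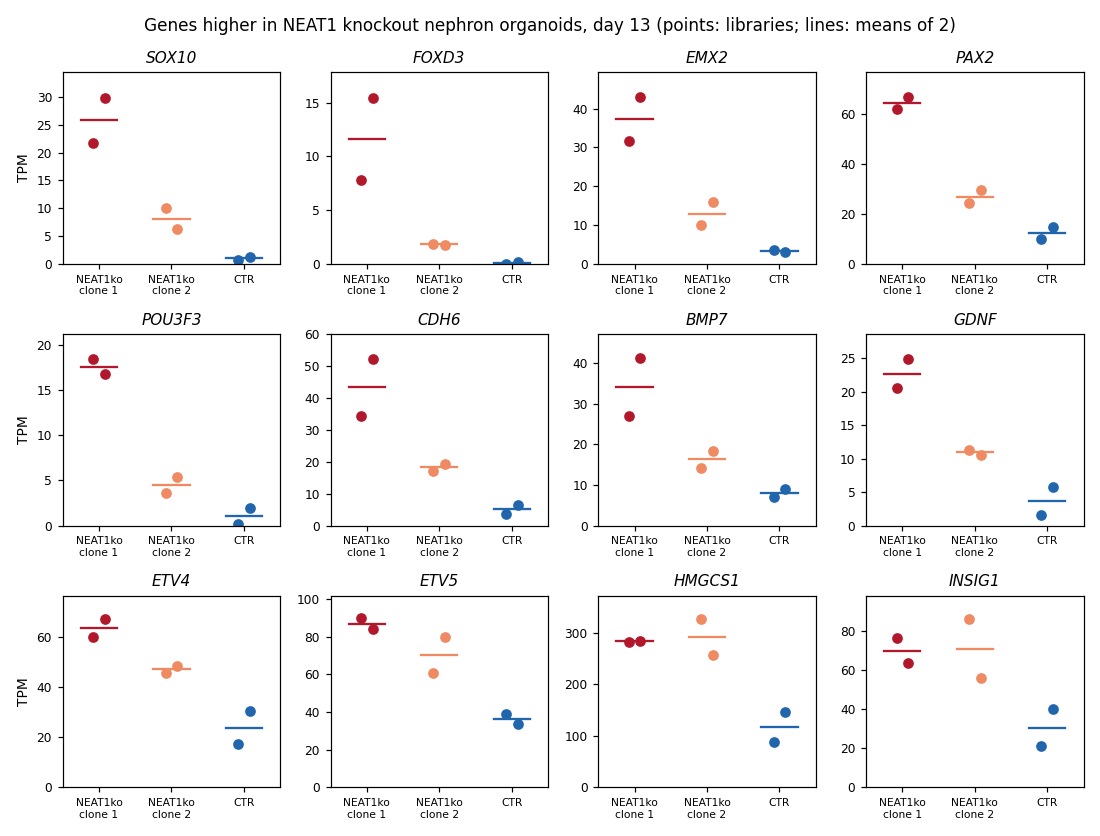
TPM in each library (points; the line is the mean of the 2 libraries) for 12 genes that were called higher in the knockouts, with clone 1, clone 2 and CTR from left to right and a linear axis from 0 in every panel. For neural crest, renal vesicle and progenitor genes clone 1 lies above clone 2 and both lie above CTR; for HMGCS1 and INSIG1 the clones lie at like levels.

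Genes that report FGF and ERK signalling were higher. Of 10 tested, 5 rose (ETV4, ETV5, DUSP6, SPRY1 and SPRY2) and 0 fell, with a median log2 change of 0.54. ETV5, an ETS factor induced by FGF, had 89.9 and 84.1 TPM in clone 1 and 60.7 and 80.0 TPM in clone 2, against 39.1 and 33.4 TPM in CTR (log2 1.09 ± 0.13, limma adjusted p = 0.0091, 6 of 6 refits). DUSP6, a phosphatase that feeds back on ERK, had 75.1 and 64.2 TPM in clone 1 and 49.7 and 56.0 TPM in clone 2, against 32.9 and 36.3 TPM in CTR, and lost its call only without clone 2 replicate 2 (0.0568). ETV4 rose by 1.22 ± 0.20 and lost its call without any 1 of the 4 knockout libraries (up to 0.0832), and the count of 5 was 1 without clone 2 replicate 2. SPRY1 and SPRY2, feedback inhibitors of the pathway, kept their calls in 1 and 2 of 6 refits (up to 0.127 and 0.0793), and clone 2 alone had 0 calls on the list, against 5 in clone 1. The ligands FGF9 and FGF20, the receptor FGFR1, and SPRY4 and SPRED2 of the same list were not called.

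HOX genes of the posterior groups were partly higher: of 10 tested, 4 rose (HOXA9, HOXB9, HOXC9 and HOXD9) and 0 fell, and all 4 belong to paralogue group 9. HOXA9 had 204 and 223 TPM in clone 1 and 200 and 199 TPM in clone 2, against 110 and 143 TPM in CTR (log2 0.71 ± 0.11, limma adjusted p = 0.0177, 3 of 6 refits). The count was 0 without clone 1 replicate 2 and without either clone 2 library. CRABP1, a retinoic acid binding protein, had 149 and 204 TPM in clone 1 and 88.0 and 68.5 TPM in clone 2, against 26.7 and 33.4 TPM in CTR, and was 3.80-fold higher (adjusted p = 0.0048, 6 of 6 refits).

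Genes of cholesterol synthesis were higher in the mean of both clones. Of 16 tested, 11 rose and 0 fell in the mean of both clones, with a median log2 change of 0.93, which was 0.91 in clone 1 and 0.90 in clone 2. Clone 1 alone had 8 called rises and clone 2 alone 2. HMGCS1, which makes HMG-CoA for the pathway (chr5:43289395-43313512, minus strand), had 283 and 285 TPM in clone 1 and 327 and 258 TPM in clone 2, against 87.3 and 147 TPM in CTR. INSIG1, the sterol-sensing anchor of the pathway, had 76.5 and 63.5 TPM in clone 1 and 86.1 and 55.9 TPM in clone 2, against 21.1 and 40.1 TPM in CTR. For both genes every knockout library lay above both CTR libraries.

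HMGCS1 was 2.52-fold higher (log2 1.34 ± 0.20, limma adjusted p = 0.0166). IDI1, an isomerase of the isoprenoid branch, and INSIG1 rose by 1.07 ± 0.19 and 1.23 ± 0.27 (adjusted p = 0.0258 and 0.0469). These calls depended on single libraries: HMGCS1 lost its call without clone 1 replicate 2 or either clone 2 library (up to 0.0584), INSIG1 and IDI1 lost theirs in every refit except that without CTR replicate 2 (up to 0.126), and the count of 11 ranged from 1, without either clone 2 library, to 12, without CTR replicate 2. SQLE, MSMO1, LSS and MVK were among the 5 that did not pass. SQLE, the epoxidase that sets the pace of the late steps, had 164 and 174 TPM in clone 1 and 223 and 151 TPM in clone 2, against 84.8 and 118 TPM in CTR (adjusted p = 0.0506).

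The 250 bases before the transcription start are shown for HMGCS1, INSIG1 and IDI1, the 3 genes of the list with the largest changes, because these genes of 1 pathway were called higher. They are from RefSeq on GRCh38.p14, 5′ to 3′ on the strand of the gene, with CCAAT or its reverse complement and CACGTG in capitals. The RefSeq start nearest to the start of the annotated gene was used. For HMGCS1 these starts differ, and the window reaches into the gene span given above.
HMGCS1, chr5:43313413-43313662 (-): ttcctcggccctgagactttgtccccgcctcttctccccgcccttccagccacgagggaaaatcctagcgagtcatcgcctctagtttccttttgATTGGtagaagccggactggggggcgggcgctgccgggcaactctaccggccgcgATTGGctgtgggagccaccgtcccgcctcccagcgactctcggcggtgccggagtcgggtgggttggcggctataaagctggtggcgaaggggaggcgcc
INSIG1, chr7:155297628-155297877 (+): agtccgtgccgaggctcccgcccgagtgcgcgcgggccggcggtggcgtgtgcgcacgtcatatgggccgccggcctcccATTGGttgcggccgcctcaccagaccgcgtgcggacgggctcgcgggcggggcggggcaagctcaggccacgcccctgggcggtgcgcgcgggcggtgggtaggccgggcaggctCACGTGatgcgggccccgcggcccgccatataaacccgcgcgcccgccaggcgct
IDI1, chr10:1049120-1049369 (-): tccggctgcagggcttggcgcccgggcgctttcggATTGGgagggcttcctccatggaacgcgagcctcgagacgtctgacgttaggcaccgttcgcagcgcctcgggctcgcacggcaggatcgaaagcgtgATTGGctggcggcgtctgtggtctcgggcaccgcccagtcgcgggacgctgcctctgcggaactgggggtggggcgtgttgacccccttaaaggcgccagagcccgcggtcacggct
Of the 16 genes of the list, 11 had an entry, and 9 of these (81.8%) held CCAAT on either strand, against 32% of 35116 entries. MVK, LSS and MSMO1, which were not called, held CCAAT. CYP51A1 and DHCR7, which were called higher, did not. A relation of the match to the change was not tested. CACGTG was in 1 of 11 (9.09%), that of INSIG1, against 6.34% of entries, and TCACNCCAC, a form of the sterol response element, in 0 of 11, against 0.883%. No match of CACGTG overlapped one of CCAAT, and a match is a description of letters, not of a site in use.

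**Figure D3:**
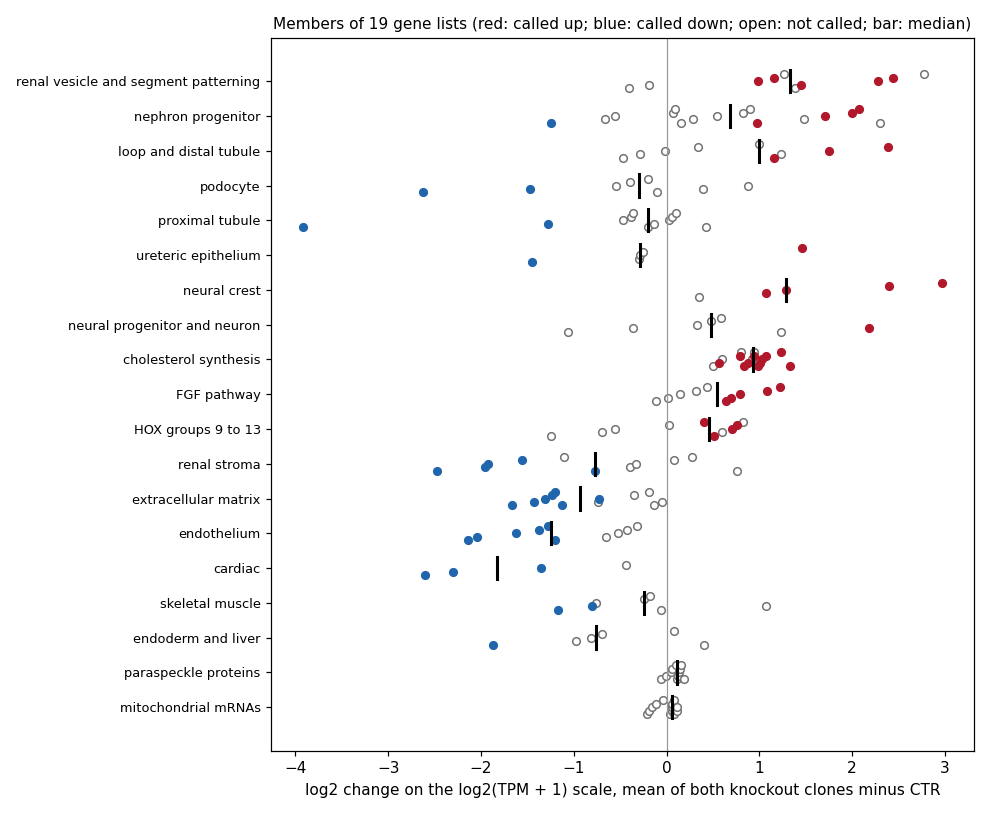
Log2 change of each tested member of 19 gene lists (mean of both clones minus CTR, log2(TPM + 1) scale); red points are called higher, blue points called lower, open points not called, and the bar is the list's median. Endothelium, extracellular matrix and cardiac lists lie left of 0, renal vesicle, neural crest and cholesterol synthesis lists right of it, and paraspeckle proteins and mitochondrial mRNAs at it.

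Other lists held few calls, read against 2.18% of all genes higher and 5.05% lower. Of 13 mitochondrial mRNAs, 4 tested genes of antigen presentation and 9 of cilia and cystic kidney, none was called; in clone 1 alone B2M of the antigen presentation list fell by 0.64 (limma adjusted p = 0.0357), a call kept in 0 of 6 refits. Of 13 cell cycle genes, 2 rose (CCNA2 and E2F1), of 12 genes of the ER and ATF4 stress response, 1 rose (PSAT1), and of 15 of hypoxia and glycolysis, 1 rose (ALDOA). These 4 kept their calls in 1 refit at most. Of 5 tested pluripotency genes, 1 rose, LIN28A, which passed in 6 of 6 refits (0.62 ± 0.08). Of 8 interferon response genes, 1 fell, BST2 (tetherin), with 216 and 217 TPM in clone 1 and 298 and 357 TPM in clone 2, against 565 and 523 TPM in CTR (limma adjusted p = 0.0046, 6 of 6 refits). Of 11 tested imprinted genes, 3 fell: MEST passed in 6 of 6 refits, with a log2 change of -0.47 ± 0.06, and DLK1 and PLAGL1 in 1 each.

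The lists of other pathways held 4 or fewer calls each. Of 13 tested WNT genes 2 fell (SFRP1 and RSPO3), of 9 Notch genes 2 fell (HEY1 and HEY2), and of 10 BMP and TGF-beta genes 1 rose (NOG) and 1 fell (BMP5). Of 9 retinoic acid genes 2 rose (CRABP1 and CRABP2) and 1 fell, and of 10 p53 targets 1 fell (TP53I3). Of 13 immediate early genes 1 rose (EGR1) and 2 fell (JUN and KLF2). JUN, a part of AP-1, had 54.7 and 43.0 TPM in clone 1 and 98.9 and 94.1 TPM in clone 2, against 125 and 129 TPM in CTR, and lost its call only without clone 2 replicate 2 (limma adjusted p = 0.0512).

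Among lists of other cell types, 2 of 7 skeletal muscle genes fell (DES and TNNT1), while MYOD1, MYOG and MYF5, which define the lineage, did not pass the filter. Of 7 cartilage genes 1 rose (COL2A1) and 2 fell (COL11A1 and HAPLN1), of 6 early mesoderm genes 1 fell (HAND1), and of 5 ureteric genes 1 rose (GFRA1) and 1 fell (WNT11). Of 9 genes of epithelial adhesion, 2 rose (CLDN3 and CLDN4) and 2 fell (KRT8 and KRT19). In clone 1 alone 4 rose, CDH1 and EPCAM besides, and in clone 2 alone 0 rose. Apart from SFRP1, BMP5, CRABP1, HAND1 and KRT19, none of the genes named in these lists passed in all 6 refits.

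The clones were compared with each other directly. At an adjusted p under 0.05, 9 of 20670 genes differed, which is 0.0435%, with 5 higher (0.0242%) and 4 lower (0.0194%) in clone 2 (limma). LRRC61 (chr7:150322639-150338150, plus strand) had 40.9 and 38.0 TPM in clone 2, against 1.79 and 0.159 TPM in clone 1, while CTR had 26.1 and 23.7 TPM. ZNF248, a zinc finger gene, had 11.4 and 8.70 TPM in clone 2 and was listed at 0 in both clone 1 libraries, against 7.15 and 8.41 TPM in CTR. PKIB, an inhibitor of protein kinase A, had 3.86 and 2.61 TPM in clone 2, against 33.4 and 35.8 TPM in clone 1, with CTR between them at 10.8 and 9.58 TPM.

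The log2 difference of clone 2 minus clone 1 was 4.49 ± 0.37 for LRRC61, 3.46 ± 0.22 for ZNF248 and -3.09 ± 0.18 for PKIB (limma adjusted p = 0.0385, 0.0133 and 0.0133). HIF1A-AS3 and LGALS1 (galectin 1) differed by 2.44 and -0.98 (0.0385 and 0.0468). ZNF585A, whose clone means lie under 5 TPM and which is named after its values were seen, had 0 and 0.0189 TPM in clone 2, against 4.99 and 4.29 TPM in clone 1 and 3.52 and 3.78 TPM in CTR. The 3 other genes have no symbol in the table. The count of 9 fell to between 0, without either clone 2 library, and 2 when a knockout library was left out, and was 15 without either CTR library. At the counts of 0, limma gave 1015 genes at an unadjusted p under 0.05 without clone 2 replicate 1 and 1636 without clone 2 replicate 2. COL3A1, KDR, SOX10 and PAX2 were not called between the clones, although each clone 2 library lay between clone 1 and CTR. The median log2 change per chromosome, in the mean of both clones, lay between -0.08 (chromosome 13) and 0.06 (the mitochondrial genome).

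The change in nephron organoids was then set against the mean change in hESC and in cortical, hepatic and lung organoids, in a fit of 30 libraries over genes that passed the filter in all 5 cell types. Of 16217 tested genes, 490 differed (3.02%), 110 in the positive (0.678%) and 380 in the negative (2.34%) direction (limma, adjusted p under 0.05). After rescaling by size factors, 210 of 527 were positive. The count fell to between 118, without nephron CTR replicate 2, and 398 when a nephron library was left out, and to 218 without hESC. COL3A1, KDR, TEK, CDH5, SOX10 and FOXD3 did not pass the filter in every cell type, so whether their change is particular to nephron organoids was not tested. COL1A1 did not pass (difference -1.45, adjusted p = 0.0833).

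GPR39, a zinc-sensing receptor, and LYPD1, a progenitor gene of the kidney, overlap on opposite strands of chromosome 2 with 1180 shared exon bases, and without strand their reads cannot be told apart. GPR39 had 30.1 and 38.8 TPM in clone 1 and 15.1 and 17.1 TPM in clone 2, against 3.49 and 6.23 TPM in CTR. Its change in nephron organoids exceeded the mean of the other cell types by 2.38 ± 0.26 (limma adjusted p = 4.43e-05), and that of LYPD1 by 2.39 ± 0.28 (6.68e-05). In cortical organoids GPR39 lay between 23.1 and 36.1 TPM in the knockouts, against 27.3 to 44.4 TPM in CTR.

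The fall of PODXL was larger than the mean change of the other cell types, with a difference of -2.56 ± 0.30 (limma adjusted p = 0.000102): its log2 change was -2.63 in nephron organoids, 0.05 in hESC, -0.25 in cortical, 0.06 in hepatic and -0.14 in lung organoids. SOX2, CRABP1 and PLA2G3 exceeded the other cell types by 2.06, 2.08 and 2.28 (adjusted p = 0.0226, 0.0246 and 0.0102). PRPH, ODF3B, REG1A and LGALS3BP differed by -2.75, -2.76, -2.25 and -2.22 (0.000537, 0.0043, 0.00346 and 0.0139).

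CXCL11, an interferon-induced chemokine, differed by -2.84 ± 0.32 (limma adjusted p = 4.43e-05) through the other cell types. In nephron organoids it had 71.7 and 52.0 TPM in clone 1 and 69.5 and 63.4 TPM in clone 2, against 48.1 and 41.6 TPM in CTR, and was not called (adjusted p = 0.083). In cortical organoids it lay between 43.7 and 77.8 TPM in the knockouts, against 0 to 0.433 TPM in CTR, and in lung organoids between 14.9 and 23.6 TPM, against 0 to 0.0837 TPM. The log2 change was 0.64 in hESC and 0.50 in nephron organoids, against 2.85, 4.23 and 5.64 in hepatic, lung and cortical organoids. The knockout levels in nephron and cortical organoids overlapped, and the CTR levels did not.

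**Figure D4:**
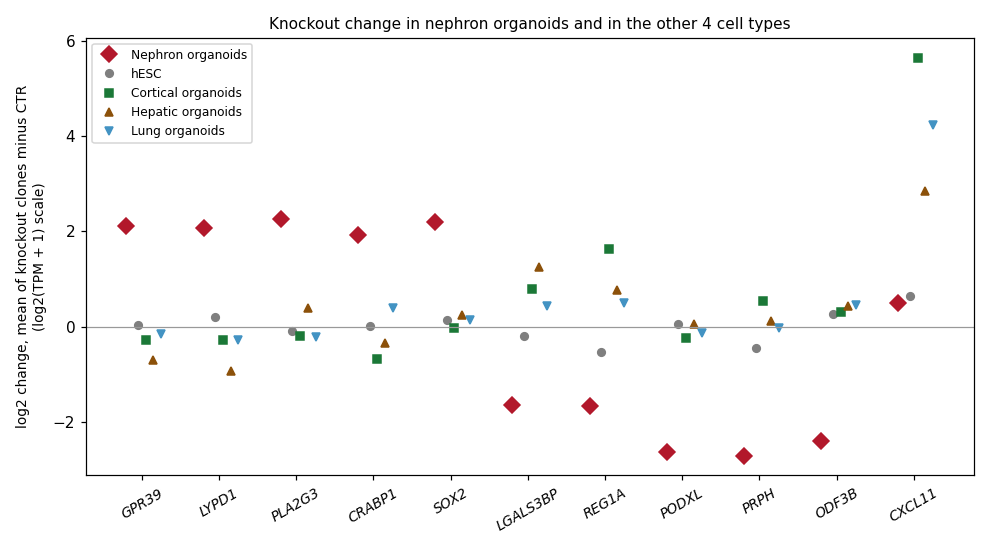
Log2 change (mean of both clones minus CTR, mean over libraries of log2(TPM + 1)) in nephron organoids (red diamonds) and in the other 4 cell types for 11 of the 12 genes named for this difference. Nephron changes lie near 2 for the 5 genes at the left, where the other changes lie within 1 of 0, and CXCL11 at the far right changed by 2.85 to 5.64 in the other organoids and by 0.50 in nephron organoids.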

How the data were processed

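PolyA RNA-seq reads were trimmed (Trim Galore 0.6.7, cutadapt 4.1), aligned to hg38 by STAR 2.7.10a and assigned to genes by Subread 2.0.1, per the submitters' processing notes. The authors deposited TPM per gene; strand use and depth are not given in the sources used here. Values of the authors' DESeq2 1.36.0 comparison (log2 fold changes and adjusted p-values) come from the authors' deposited tables and are named as such. Those tables also hold the authors' mean normalized counts (a signal) and test statistic (a score), which were not printed.

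From the TPM, log2(TPM + 1) was fitted with limma 3.58.1 in R 4.3.3 (empirical Bayes with a trend) on the 6 libraries, each clone its own group, over genes reaching 1 TPM in at least 2 libraries. P-values were two-sided and Benjamini-Hochberg adjusted over all genes tested; the threshold was 0.05. The mean of both clones, each clone, and clone 2 against clone 1 are contrasts of that fit. Gene positions come from GENCODE v29 on GRCh38. The procedure was tested on simulated data.

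Named genes are NEAT1, the 12 largest called rises and falls with at least 5 TPM in a group and no overlap between knockout and CTR libraries, 6 in each direction for the clone and cell type contrasts, and up to 4 called members of each of 37 lists. The members and lists were chosen with earlier results of these data known. Other list members, called or not, were named after their values were seen. Some genes counted in the totals are not reported here by name. The labels do not say whether replicate numbers pair the libraries, and the main fits used no replicate block. Replicate differences correlated between groups at -0.0197, 0.078 and -0.0903. Alternatives were another pseudocount, filters, scaling, a replicate block, other fits and leaving out each library.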

Additional observations from a re-analysis of the deposited data

Results flagged for a closer look

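The knockout change of these genes differed between nephron organoids and the mean of the other 4 cell types in a direct test of that difference (limma, adjusted p under 0.05; values are log2 differences, nephron minus the others). It was positive for LYPD1 (2.39), GPR39 (2.38), PLA2G3 (2.28), CRABP1 (2.08), SOX2 (2.06), BMP7 (1.55), PKIB (1.46), INSIG1 (1.45), CCND1 (1.36), HMGCS1 (1.31), ETV5 (1.29), CLDN3 (1.02) and IDI1 (0.93). For PKIB the difference came through falls in the other cell types: -0.30 in hESC, -2.28 in cortical, -0.68 in hepatic and -2.05 in lung organoids. Its nephron change was 0.13, the mean of clones that moved in opposite directions (1.67 in clone 1, -1.415 in clone 2). It was negative for CXCL11 (-2.84), ODF3B (-2.76), PRPH (-2.75), PODXL (-2.56), REG1A (-2.25), LGALS3BP (-2.22), COL5A1 (-1.75), NEAT1 (-1.74), SLC5A12 (-1.71), KRT19 (-1.49), TNNT1 (-1.37), COL6A2 (-1.32), SFRP1 (-1.17), COL6A1 (-0.97) and COL11A1 (-0.87). The comparison is with a mean, and single cell types can be alike. KRT19 changed by -1.48 in nephron and -1.27 in hepatic organoids, and HMGCS1 by 1.34 and 0.96. NEAT1 changed by -4.90 in nephron and -4.97 in hepatic organoids, and by -1.46 in hESC, -2.72 in cortical and -3.51 in lung organoids. On the log2(TPM + 1) scale a fall cannot exceed the CTR value. The falls of NEAT1 are therefore bounded by its CTR level and do not measure how complete the knockout was.

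The clones differed from each other, clone 2 minus clone 1, for LRRC61 (4.49), ZNF248 (3.46), HIF1A-AS3 (2.44), LGALS1 (-0.98) and PKIB (-3.09) on the log2 scale.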

How the results depend on the processing

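None of 104 called genes changed direction under an alternative that gave it a value (the fit of all 30 libraries gave one for only some of them), but the number of calls moved. For the mean of both clones, 1494 genes became 735 without the filter on low values, 983 in a fit pooling the knockout libraries, 675 in the fit of all 30 libraries and 235 to 732 when 1 library was left out, where a group left with 1 library is assumed to vary like the others. For clone 1, 1611 became 801 without the filter, 806 in a fit of its 4 libraries and 202 to 1038 with a library left out. For clone 2, 175 became 4 without the filter, 312 with a filter of 5 TPM, 13 in its own fit and 0 to 173 with a library left out. Between the clones, 9 became 4 with a pseudocount of 0.1, 0 without the filter (limma; 2155 at an unadjusted p under 0.05) and 0 to 15 with a library left out. For nephron against the other cell types, 490 became 1294, 246 and 218 without the filter, with the 5 TPM filter and without hESC, and 118 to 398 with a library left out. Rescaling moved the share of higher calls for this contrast to 39.8%. A replicate block gave 1091, 1180, 9, 4 and 474 calls in the same order of contrasts. Whether the replicate numbers pair the libraries is not stated. The causes were not tested.

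Of 115 named genes, 41 to 82 kept their side of the threshold when a library was left out. The genes whose sign changed were not called: HLA-B ranged from -0.20 to 0.84, MT-ND2 from -0.00069 to 0.22, PKD1 from -0.059 (without CTR replicate 2; -0.0022 without clone 1 replicate 1) to 0.21 and PKD2 from -0.20 to 0.055 (without clone 1 replicate 2; 0.0088 without clone 2 replicate 2). TPM keeps no depth, so counting error could not be separated from other spread.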
